A study of Mus musculus with 4 samples.

Results

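The AP-1 and EGR immediate early factors described here are 10 mouse genes: the zinc finger genes Egr1 and Egr2, the FOS family genes Fos, Fosb, Fosl1 and Fosl2, the JUN family genes Jun, Junb and Jund, and Atf3. They were taken as every probe set whose platform annotation names exactly 1 gene, that gene being in this set, which gave 13 of the 22626 probe sets measured. Jun, Egr2 and Fosl1 have 2 probe sets each and the other genes 1. The arrays were hybridised with total RNA from 3T3-F442A cells, a line of mouse preadipocytes able to mature into fat cells in a dish. The arrays labelled shTRPV4 (2 arrays) come from cells that express a short hairpin RNA against the calcium-permeable channel gene Trpv4, and the arrays labelled shGFP (2 arrays) from cells with a hairpin against GFP, a control target that mouse cells lack. Per the labels, both groups were infected with retrovirus as preadipocytes and selected in puromycin at 2 ug/ml for 2 days. Both were then grown to confluence and differentiated with insulin at 850 nM for 8 days, and rosiglitazone, which activates the fat cell regulator PPAR gamma, was present for the first 2 days. The labels name 1 hairpin target per group and do not say how many hairpin sequences were used, or whether replicates were separate infections, cultures or hybridisations, so the p-values reflect array-to-array spread that may be technical only. They describe no acute stimulus before lysis, so the values are levels in differentiated cultures and not an induction time course. The Trpv4 probe set read 80.1 and 79.5 in the arrays labelled shTRPV4, against 43.7 and 93.8 in the arrays labelled shGFP, with overlap. Its log2 difference, shTRPV4 minus shGFP, was 0.32 (95% interval −0.55 to 1.19, limma adjusted p = 0.55). No fall of Trpv4 was therefore seen on this probe set, although the wide interval still allows a small one. The knockdown was not seen in these data, and groups are named by their labels.

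AP-1 is a family of dimers built from JUN, FOS and ATF proteins, which pair through a leucine zipper and bind DNA through the basic region beside it. FOS proteins do not pair stably with each other and need a JUN partner, while JUN proteins can also pair among themselves. EGR proteins bind GC-rich DNA through zinc fingers. Most of these genes are switched on within minutes of a growth factor, calcium or stress signal without new protein synthesis, through serum response factor with its ETS partners, CREB and ATF proteins, and AP-1 itself. In preadipocyte cultures several of them are transiently induced when differentiation starts, and Egr2 (Krox20) promotes differentiation of the 3T3-L1 preadipocyte line.

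Egr1 was 1.98-fold lower in the arrays labelled shTRPV4 on the log2(intensity + 16) scale, and lower levels were also called for Atf3 and for 1 probe set each of Jun and Egr2. Egr1 had the largest difference of the 13 probe sets on this scale. It also had it with the values as deposited (−1.04), median centring (−0.94) and an offset of 64 (−0.89). The same held without replicate 2 of shGFP (−0.95) and without replicate 1 of shTRPV4 (−0.94). Egr2 1427683_at, which did not pass, had it with an offset of 1 (−1.04), without replicate 1 of shGFP (−1.13) and without replicate 2 of shTRPV4 (−1.13). Filters on dim probe sets, an intensity trend and a replicate block leave every retained difference unchanged, so they say nothing more about this order. Of the 13 probe sets, 4 fell, 0 rose and 9 did not pass the threshold, a Benjamini-Hochberg adjusted p under 0.05 from limma over all probe sets. Over all 22626 probe sets, 5.36% were called lower and 4.54% higher by the same rule. That split depends on scaling: 1161 fell and 600 rose with the values as deposited, and 1141 fell and 1662 rose with median centring, where quantile normalization gave 1213 and 1027. The 4 lower calls became 2 with the values as deposited, 3 with median centring and 1, Egr1, with an offset of 1 in place of 16. At an unadjusted p under 0.05, 8 of the 13 were lower and 1 was higher, against 14.3% and 16.3% of all probe sets. In the deposited intensities the groups did not overlap, with both arrays labelled shTRPV4 lower, for 9 of the 13, against 30.3% of all probe sets. Both were higher for 1, against 26.2%. In the normalized values both were lower for 9, against 27.2% of all probe sets, and higher for 2, against 31.3%. The median log2 difference of the 13 was −0.39, against 0.02 over all probe sets. The members, and the gene lists below, were chosen with earlier results of these data known. Their counts beside the shares over all probe sets or genes are therefore no independent test. Differences are arrays labelled shTRPV4 minus arrays labelled shGFP of quantile-normalized log2(intensity + 16) values, a scale that understates the change of dim probe sets, and intensities are given as deposited.

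**Figure D1:**
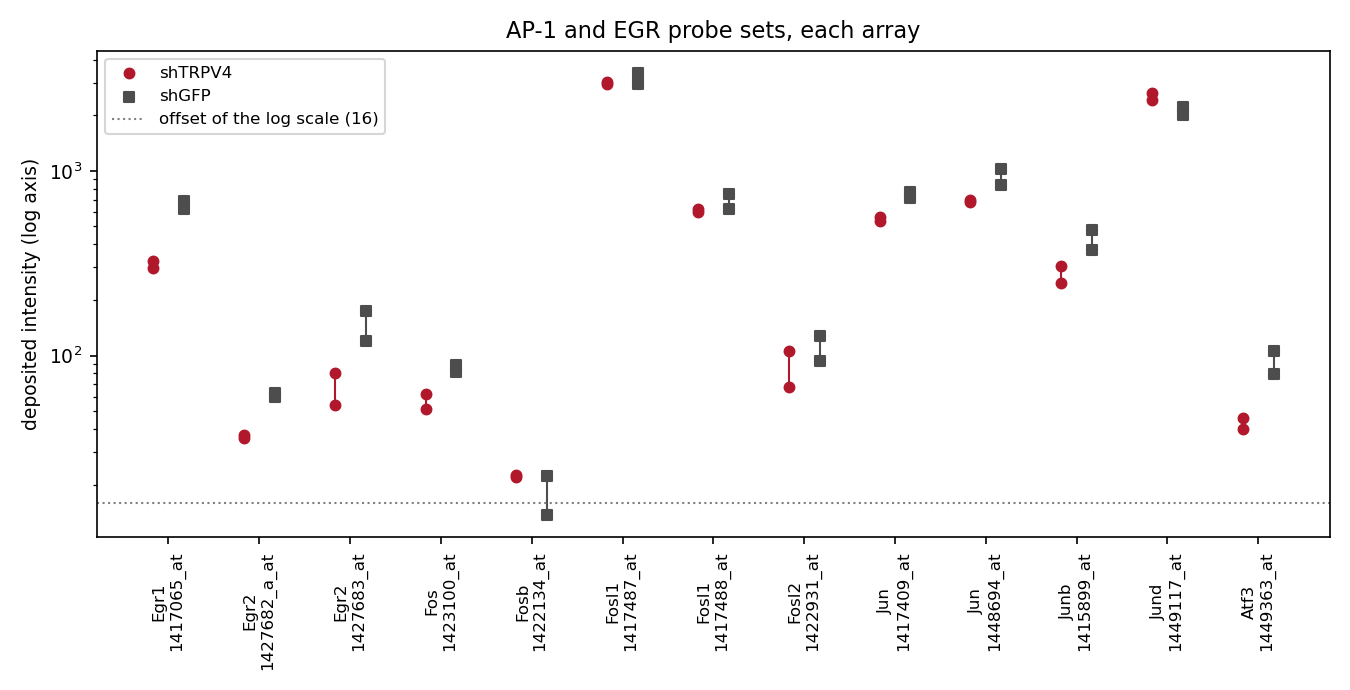
Deposited intensity (log axis) of each of the 13 AP-1 and EGR probe sets on every array, with shTRPV4 arrays as red circles left of shGFP arrays as grey squares and a line joining the 2 arrays of a group. Egr1 reads 298 and 327 in the shTRPV4 arrays, below 625 and 690.45 in the shGFP arrays, and Fosb lies near the dotted line at 16, the offset added before taking logs.

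The sequence before the start site is shown for Jun, Atf3 and Egr2, which each had a probe set that fell and a match to a known element of their promoters. Egr1 and Fosl1 had no matched RefSeq window, so they were not searched. Windows of 300 bases, from 250 before to 50 after a start site, were matched for the other 8 of the 10 genes (build GRCm38.p6). They were searched on both strands for the AP-1 site TGANTCA, the cyclic AMP response element TGACGTCA, its variants TTACGTCA, TGACATCA and TTACCTCA, the EGR site GCGNGGGCG, and the CArG box, to which serum response factor binds. The 3 variants were spelled after sites known in the Atf3 and Jun promoters, so that finding them there is no result. The 250 bases before the start site follow, 5′ to 3′ on the gene's strand, with the matches in capitals.
Jun (chr4:95052223-95052472, minus strand): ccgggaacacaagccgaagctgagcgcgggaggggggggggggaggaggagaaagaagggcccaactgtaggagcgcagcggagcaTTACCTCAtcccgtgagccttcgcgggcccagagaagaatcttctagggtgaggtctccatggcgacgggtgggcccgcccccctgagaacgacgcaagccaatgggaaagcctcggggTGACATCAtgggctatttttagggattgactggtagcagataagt
Atf3 (chr1:191183334-191183583, minus strand): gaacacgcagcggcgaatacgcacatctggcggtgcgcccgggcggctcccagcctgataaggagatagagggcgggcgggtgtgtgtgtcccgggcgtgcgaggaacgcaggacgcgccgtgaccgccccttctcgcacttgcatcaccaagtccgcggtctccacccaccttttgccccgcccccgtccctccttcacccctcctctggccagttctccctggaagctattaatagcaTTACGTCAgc
Egr2 (chr10:67537619-67537868, plus strand): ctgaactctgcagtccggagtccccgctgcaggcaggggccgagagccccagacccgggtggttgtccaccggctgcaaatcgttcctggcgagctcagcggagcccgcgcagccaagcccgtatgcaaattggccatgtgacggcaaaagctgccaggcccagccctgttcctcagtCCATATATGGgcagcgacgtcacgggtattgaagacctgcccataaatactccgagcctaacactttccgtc

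In the Jun sequence, TTACCTCA lies 164 to 157 bases and TGACATCA 45 to 38 bases before the start site, and these are the elements through which JUN and ATF2 dimers are known to act on Jun itself. Over all 32851 windows, 0.889% held TTACCTCA and 3.62% TGACATCA. The Atf3 site TTACGTCA lies 10 to 3 bases before the start site, and 0.499% of all windows held it. Egr2 has 5 listed start sites, and in the window shown the CArG box lies 72 to 63 bases before the start, with 1.63% of all windows holding one. This window and 2 others hold the same box, 1 holds another CArG box and 1 holds no match. The Fosl2 and Fosb windows each held an EGR site (5.55% of all windows), and the Fos, Junb and Jund windows held none of these letters. Elements outside the windows, or spelled in other ways, were not searched for. The variants were spelled after Atf3 and Jun sites only, so an empty window does not show that a gene lacks such elements. None of the 8 genes' windows held TGANTCA or TGACGTCA, which 7.81% and 1.79% of all windows held.

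Both EGR genes had lower readings in the arrays labelled shTRPV4, with calls for 2 of their 3 probe sets. Egr1 (1417065_at), a zinc finger factor induced by growth factor and stress signals, read 298 and 327 in the arrays labelled shTRPV4, against 625 and 690.45 in the arrays labelled shGFP. The groups were far apart relative to the gap within each. The means were 312 ± 20.0 for shTRPV4 and 658 ± 46.2 for shGFP (SD, n = 2 each), a ratio of 2.11 between the deposited means and a 1.98-fold lower level on the log2(intensity + 16) scale (−0.99, SE 0.07, 95% interval −1.19 to −0.78, limma adjusted p = 0.018). Across the 4 pairings of an array labelled shTRPV4 with one labelled shGFP the difference lay between −1.07 and −0.91.

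Egr2, the Krox20 factor, was read by 2 probe sets that both gave lower values in the arrays labelled shTRPV4. On the probe set 1427682_a_at Egr2 had readings of 37.1 and 35.9 in the arrays labelled shTRPV4, against 62.6 and 59.5 in the arrays labelled shGFP. These values are close within each group and do not overlap. The log2 difference was −0.50 (SE 0.07, limma adjusted p = 0.034), and the call was lost with an offset of 1 in place of 16 (adjusted p = 0.055) and with an intensity trend in limma (adjusted p = 0.057). On 1427683_at, with the higher mean over the arrays, the readings were 54.1 and 80.6 in the arrays labelled shTRPV4, against 119.8 and 174.5 in the arrays labelled shGFP. It had the larger difference and the wider spread, and it did not pass (−0.90, SE 0.24, 95% interval −1.59 to −0.21, limma adjusted p = 0.10). The ratio between the deposited means, shGFP over shTRPV4, was 2.19 for 1427683_at and 1.67 for 1427682_a_at. With both probe sets averaged, a choice made after the values were seen, Egr2 differed by −0.70 (limma adjusted p = 0.042).

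**Figure D2:**
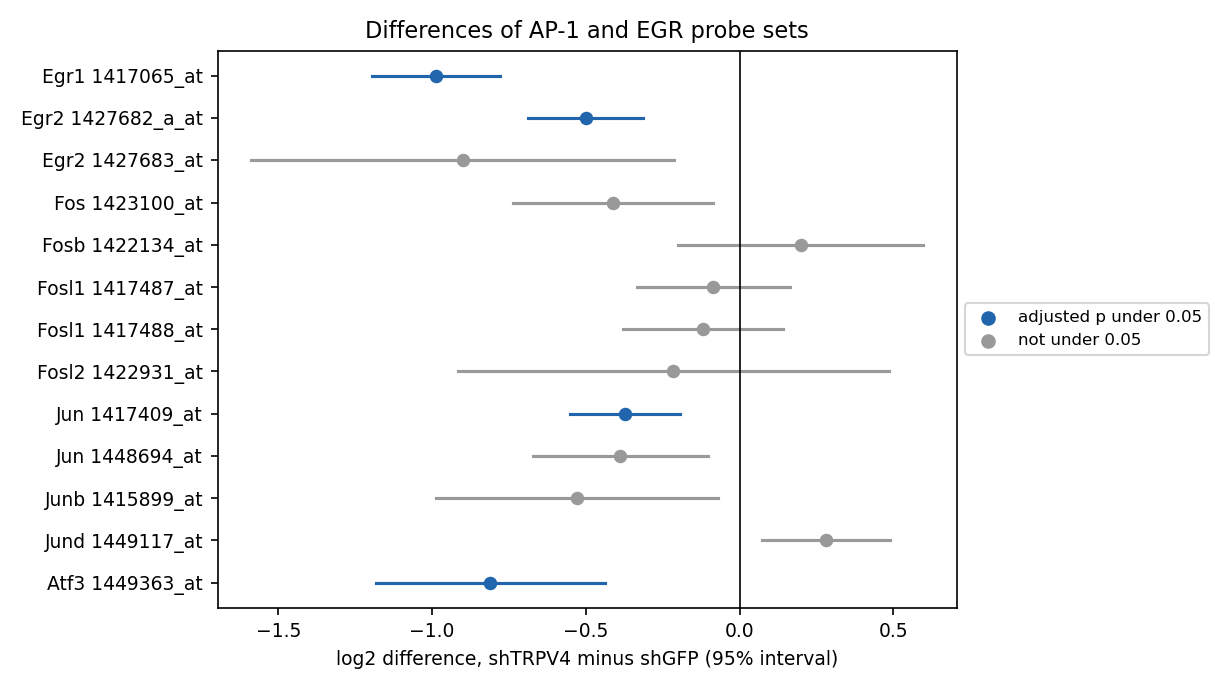
Log2 difference (shTRPV4 minus shGFP) of each probe set with its 95% interval from limma, in blue where the adjusted p is under 0.05 and in grey otherwise. Egr1 at −0.99, Atf3 at −0.81, Egr2 1427682_a_at at −0.50 and Jun 1417409_at at −0.37 passed, and Jund and Fosb lie right of 0.

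No FOS family probe set passed: of 5, 4 had a negative and 1 a positive difference, from −0.41 to 0.20. Fos, the founding AP-1 partner of Jun, read 51.6 and 61.9 in the arrays labelled shTRPV4, against 88.6 and 81.6 in the arrays labelled shGFP. The groups did not overlap, but the difference missed the threshold (−0.41, SE 0.11, 95% interval −0.74 to −0.09, limma adjusted p = 0.11). Fosb read 22.5 and 22.1 in the arrays labelled shTRPV4, against 13.7 and 22.2 in the arrays labelled shGFP. These readings lie around the offset of 16 and overlap, so the difference of 0.20 (95% interval −0.20 to 0.60, limma adjusted p = 0.42) depends on that offset.

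Fosl1 and Fosl2 encode Fra-1 and Fra-2, FOS proteins that lack the strong activation domain of Fos. For Fosl1, readings on 1417487_at were 2940.2 and 3017 in the arrays labelled shTRPV4, against 2950.0 and 3396 in the arrays labelled shGFP, and the groups overlap. Those on 1417488_at were 599.7 and 619 in the arrays labelled shTRPV4, against 625 and 748 in the arrays labelled shGFP, without overlap. The differences were small, −0.09 (95% interval −0.34 to 0.16, limma adjusted p = 0.57) and −0.12 (−0.38 to 0.14, adjusted p = 0.46), and both intervals leave out a fall of the size seen for Egr1. The sign for 1417487_at turned to 0.01 with median centring and to 0.002 without replicate 2 of shGFP. Fosl2, known to promote leptin gene expression in adipocytes, read 105 and 67.8 in the arrays labelled shTRPV4, against 93.0 and 127 in the arrays labelled shGFP. Its arrays overlap, and its interval is too wide to place it (−0.22, 95% interval −0.92 to 0.48, limma adjusted p = 0.62), with a sign that turned to 0.07 without replicate 2 of shTRPV4.

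The JUN family was split, with Jun and Junb reading lower and Jund higher in the arrays labelled shTRPV4, and 1 of 4 probe sets passed. Jun, the main DNA-binding partner in AP-1, was read by 2 probe sets. On 1417409_at its readings were 536 and 561 in the arrays labelled shTRPV4, against 710.0 and 764 in the arrays labelled shGFP. On 1448694_at they were 682 and 692 in the arrays labelled shTRPV4, against 835 and 1023 in the arrays labelled shGFP. Neither overlaps, and their differences were nearly equal, −0.37 (SE 0.06, limma adjusted p = 0.0496) and −0.39 (SE 0.10, adjusted p = 0.097). The Jun call stands at the edge of the threshold: it was lost with the values as deposited (adjusted p = 0.066), with median centring (0.069), with an offset of 1 (0.081) and with its 2 probe sets averaged (0.053). The other probe set, 1448694_at, passed with probe sets under the 50th percentile left out (adjusted p = 0.016) and with an intensity trend (0.044).

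Junb, a JUN protein that can oppose Jun on some promoters, read 304 and 248 in the arrays labelled shTRPV4, against 373 and 476 in the arrays labelled shGFP. The groups did not overlap but each was widely spread, and the difference did not pass (−0.53, SE 0.16, 95% interval −0.99 to −0.07, limma adjusted p = 0.13). Junb passed with probe sets under the 50th percentile left out (adjusted p = 0.025). Jund, which is expressed at a steady level in most cells and is the least inducible of the JUN genes, read 2419 and 2626 in the arrays labelled shTRPV4, against 2006 and 2222 in the arrays labelled shGFP. Both arrays labelled shTRPV4 were higher, by 0.28 on the log2 scale (SE 0.07, 95% interval 0.07 to 0.49, limma adjusted p = 0.099), which did not pass. It passed with an offset of 64 (adjusted p = 0.045), with probe sets under the 50th percentile left out (0.019) and with an intensity trend (0.029). The 95% intervals of Jun (1417409_at, −0.55 to −0.19) and Jund do not overlap, but the difference between the 2 genes was not tested.

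Atf3, a stress-induced factor of the ATF family that pairs with JUN proteins and often represses transcription, read 45.9 and 40.2 in the arrays labelled shTRPV4, against 79.7 and 106 in the arrays labelled shGFP. The groups did not overlap, and the gap between the arrays labelled shGFP was the wider one. The means were 43.1 ± 3.99 for shTRPV4 and 93.0 ± 18.9 for shGFP (SD, n = 2 each), a ratio of 2.16 between the deposited means. On the log2(intensity + 16) scale Atf3 was 1.75-fold lower (−0.81, SE 0.13, 95% interval −1.18 to −0.44, limma adjusted p = 0.046). The call was lost with the values as deposited (adjusted p = 0.051) and with an offset of 1 (0.077).

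The sign held under every other setting tried for 11 of the 13 probe sets, with Fosl1 1417487_at and Fosl2 as the exceptions. Filters on dim probe sets, the intensity trend and the replicate block leave each difference as in the main setting, so no sign could change there. Egr1 passed in all 7 alternatives that kept the 4 arrays and had no replicate block, with adjusted p up to 0.047. Egr2 1427682_a_at passed in 4 of 6, Jun 1417409_at in 4 of 7 and Atf3 in 4 of 6. After removal of any 1 array, and with replicate number added as a block, limma called 0 of the 22626 probe sets at an adjusted p under 0.05, members included, although 4543 to 6858 had an unadjusted p under 0.05. Such fits keep 1 residual degree of freedom. Without 1 array the Egr1 difference lay between −1.03 and −0.94, the Atf3 difference between −0.96 and −0.65, that of Jun 1417409_at between −0.39 and −0.35, and that of Egr2 1427682_a_at between −0.53 and −0.47.

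**Figure D3:**
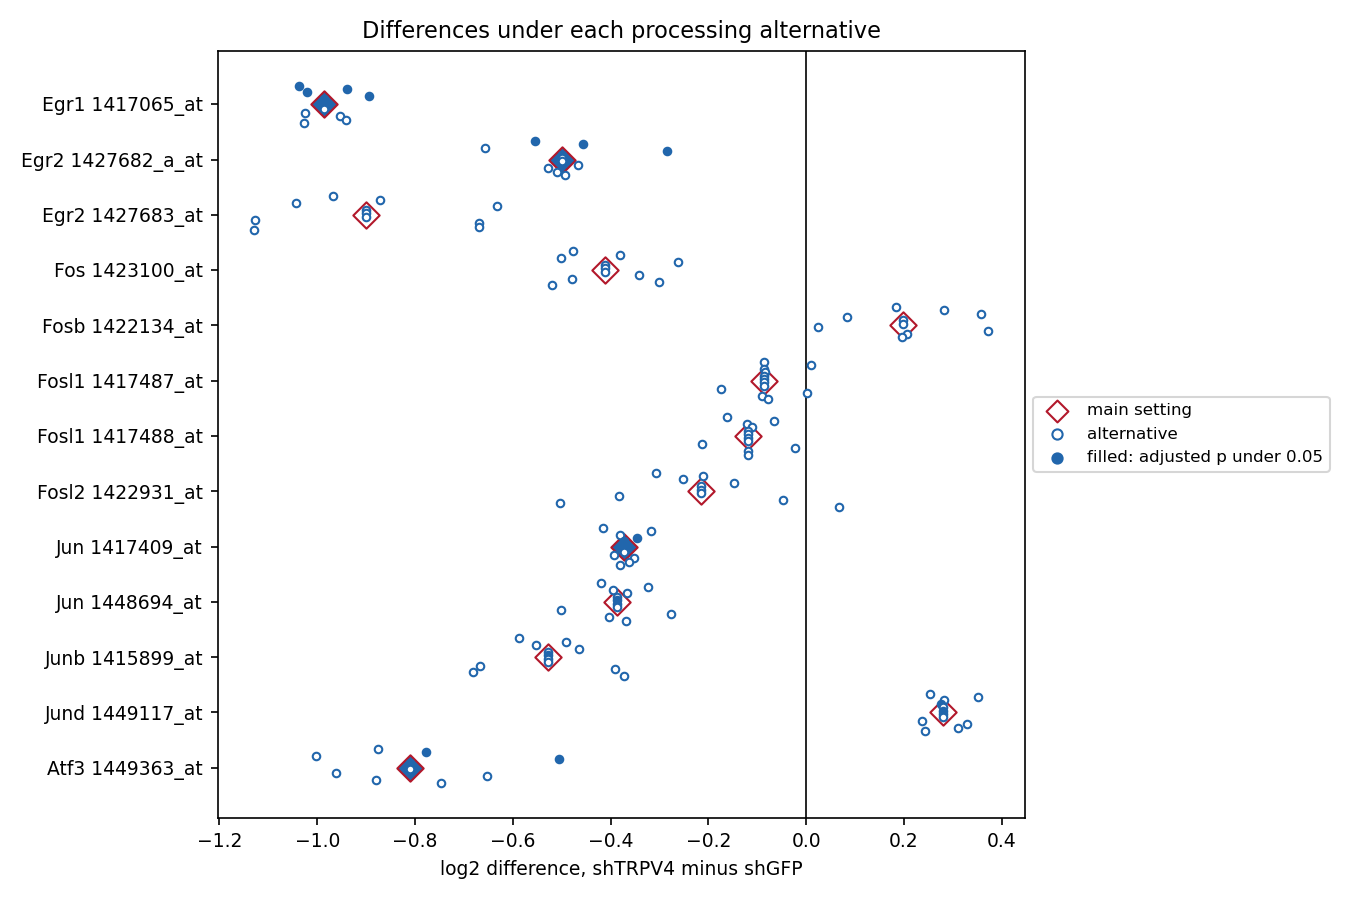
Log2 difference (shTRPV4 minus shGFP) of each probe set in the main setting (diamonds) and under up to 12 processing alternatives (circles, spread vertically for legibility), filled where the adjusted p is under 0.05. All Egr1 values lie between −1.04 and −0.89, while Fosl1 1417487_at and Fosl2 have points on both sides of 0.

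Of the adipocyte markers, Adipoq read 13294 and 14169 in the arrays labelled shTRPV4, against 11785 and 11816 in the arrays labelled shGFP. Adipoq did not pass (limma adjusted p = 0.20). Lep, the leptin gene, read 3.93 and 4.92 in the arrays labelled shTRPV4, below the offset, against 68.3 and 43.9 in the arrays labelled shGFP. Over all 12393 genes, each by its brightest probe set, 6.0% were called lower and 5.33% higher. Of 11 preadipocyte and fibroblast markers measured, 7 fell and 0 rose. Their summed intensity was 42749.9 to 44005 in the arrays labelled shTRPV4, against 57694 to 59985 in the arrays labelled shGFP. Of 11 adipocyte markers, 4 rose and 1 fell, with sums of 64955 to 67917 for shTRPV4 against 56197 to 56819.9 for shGFP. The 4 were Retn (log2 difference 1.90), Slc2a4 (1.16), Cebpa (0.88) and Pparg (0.45), and the 1 that fell was Lep (−1.77). Of 12 macrophage markers, 3 fell and 2 rose, with sums of 721 to 758 for shTRPV4 against 996 to 1114 for shGFP. The lower sum rests on Cd14 and Lyz2: the other 10 summed to 452 to 474 for shTRPV4 against 300.5 to 373 for shGFP. Fcgr1, Marco and Ptprc read below the offset of 16 on every array. Of 7 T cell and neutrophil markers, 1 fell and 0 rose, with sums of 1059 to 1113 for shTRPV4 against 2051 to 2206 for shGFP, of which S100a8 made up 1010 and 987 for shTRPV4 against 1958 and 2116 for shGFP. None of 5 endothelial markers passed, with sums of 70.8 to 84.0 for shTRPV4 against 56.4 to 86.4 for shGFP. The part of these marker differences in the Egr1, Egr2, Jun and Atf3 results was not tested, and in bulk RNA fewer cells of a type and less RNA per cell cannot be told apart.

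Among other genes of the immediate early response, most did not pass and most of those that did were lower. Of 28 listed genes 27 were measured, and 5 fell, 1 rose and 21 did not pass (median −0.16, against 0.02 over all 12393 genes, each by its brightest probe set). By the same rule 6.0% of all genes were called lower and 5.33% higher. Ptgs2, the inducible cyclooxygenase, read 195 and 168 in the arrays labelled shTRPV4, against 505 and 705 in the arrays labelled shGFP (−1.58, SE 0.18, limma adjusted p = 0.028). Sgk1, a serum- and glucocorticoid-induced kinase, read 900.0 and 847 in the arrays labelled shTRPV4, against 2071 and 2014 in the arrays labelled shGFP (−1.18, SE 0.09). The groups are well separated for both. The polo-like kinase gene Plk2 (−0.88), the growth regulator gene Myc (−0.57) and Ier5 (−0.53, limma adjusted p = 0.049) also fell. The gene that rose was Rgs2, an inhibitor of G protein signalling, at 5584 and 5718 in the arrays labelled shTRPV4, against 3806 and 4250 in the arrays labelled shGFP (0.46, SE 0.07, limma adjusted p = 0.041). The orphan receptor genes Nr4a1, Nr4a2 and Nr4a3, also classic immediate early genes, did not pass, with differences of 0.12, 0.26 and −0.07 (chosen after their values were seen). Egr3 read 25.6 and 19.1 in the arrays labelled shTRPV4, against 53.8 and 35.8 in the arrays labelled shGFP, and did not pass (−0.62, limma adjusted p = 0.12; chosen after its values were seen).

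Few genes that encode partners and upstream regulators passed. Of 35 listed, 29 were measured, and 2 fell, 0 rose and 27 did not pass (median 0.04). Rps6ka3, the ERK-activated kinase RSK2 that acts on Fos and CREB, read 515 and 551 in the arrays labelled shTRPV4, against 815 and 824 in the arrays labelled shGFP (−0.57, SE 0.07, limma adjusted p = 0.030). Mafk, a small MAF protein of the same leucine zipper class, read 217 and 231 in the arrays labelled shTRPV4, against 319 and 346 in the arrays labelled shGFP (−0.47, SE 0.06, limma adjusted p = 0.035). Both are lower without overlap, and a share of 2 in 29 is close to the 6.0% of all genes called lower.

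Genes known as targets of AP-1 or EGR factors were more often lower than higher. Of 35 listed, 31 were measured, and 12 fell, 1 rose and 18 did not pass (median −0.40, against 0.02 over all genes), where 6.0% of all genes were called lower and 5.33% higher. The list was chosen with earlier results of these data known, so its counts are no independent test. Beside this list, 7 of the 11 markers of preadipocytes and fibroblasts also fell (median −1.07), and their part in the target gene counts was not tested. Those with the largest falls were Cxcl1 (−2.65), Il6 (−2.62), Ccl2 (−2.19), Timp1 (−1.94) and Ereg (−1.89), with limma adjusted p from 0.015 to 0.017. Ereg, the EGF receptor ligand epiregulin, read 299 and 261 in the arrays labelled shTRPV4, against 1181 and 1047 in the arrays labelled shGFP. Several of these genes are also known targets of NF-kappaB, so their list is not specific to AP-1 or EGR factors. The gene that rose was Hmox1, heme oxygenase, at 5910 and 6478 in the arrays labelled shTRPV4, against 2962 and 2798 in the arrays labelled shGFP (1.09, SE 0.08, limma adjusted p = 0.018). Ptgs2, in the list of other immediate early genes, is a target of these factors as well.

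**Figure D4:**
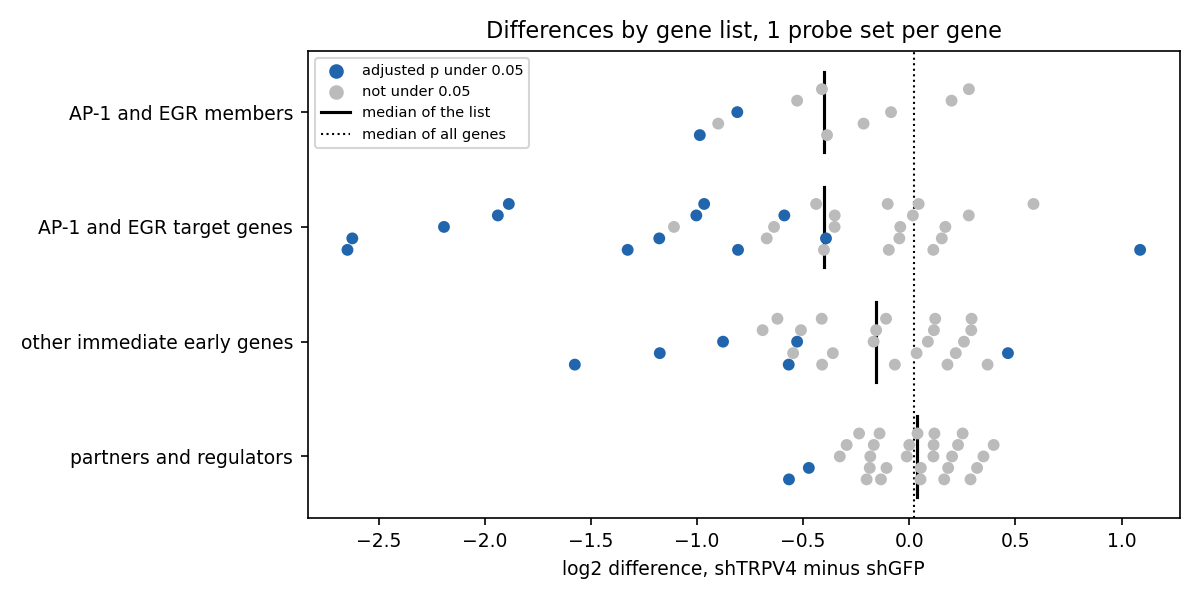
Log2 difference (shTRPV4 minus shGFP) of each gene, by its brightest probe set, for the 10 AP-1 and EGR genes and 3 lists of related genes, in blue where the adjusted p is under 0.05. Black bars mark each list's median (−0.40 for the members and for the target genes, −0.16 for other immediate early genes, 0.04 for partners and regulators) and the dotted line the median of all genes, 0.02.

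Egr1 and Atf3 passed on the brightest probe set of their gene, and the genes with the most similar profile were found by the Euclidean distance of their 4 array values, each centred on its mean on the log2 scale, among 12393 genes. Closest to Egr1 were Fzd2, a Wnt receptor (distance 0.036, on a probe set that can also read related transcripts), Ehmt2, a histone methyltransferase (0.047), and Cnot9, a subunit of the CCR4-NOT complex (0.051), with differences of −1.02, −1.01 and −1.01. Closest to Atf3 were Creb3l1, a membrane-bound leucine zipper factor (0.050), Cadm4, a cell adhesion molecule (0.087), and Csgalnact1, an enzyme of chondroitin sulfate synthesis (0.092), with differences of −0.80, −0.89 and −0.86. With 4 arrays in 2 groups, such a likeness reflects mainly a difference of similar size.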

How the data were processed

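The authors deposited 1 linear intensity per probe set and array for 4 Affymetrix mouse arrays. How probe signals were summarised, background-corrected and scaled is not given in the sources used here. Detection calls were not used, so no level marking background is known. Array medians ran from 129 to 144. Values were taken as log2(intensity + 16). The array medians on that scale spanned 0.14, over the limit of 0.1, so arrays were quantile normalized. The comparison used limma 3.58.1 (R 4.3.3; lmFit, eBayes; 2 residual and 1.80 prior degrees of freedom), as shTRPV4 minus shGFP, with Benjamini-Hochberg adjustment over 22626 probe sets. The fit was tested on simulated data. An exact permutation test of 2 arrays against 2 cannot go below p = 0.333 (two-sided) and was not used. The number of arrays limits the precision.

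Probe sets were named from the platform annotation: 20380 had 1 gene, 691 several and 1555 none. Gene IDs of 20351 matched RefSeq (GRCm38.p6), and 0 symbols changed. Every probe set of the 10 genes is reported. Other lists use each gene's brightest probe set and name at most 5 genes past the threshold in each direction. Listed genes without a probe set were not analysed here. Members and lists were chosen with earlier results of these data known. Alternatives covered scaling, offset, filters on dim probe sets, an intensity trend, a replicate block, each array left out and averaging of probe sets.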

Additional observations from a re-analysis of the deposited data

How the results depend on the processing

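Of 155 differences of the 13 probe sets under the alternatives, 3 changed sign, 28 lost a call and 7 gained one. Fosl1 1417487_at changed sign (0.0096 with median centring and from −0.17 to 0.0017 with 1 array left out). Fosl2 did so as well (from −0.50 to 0.067 with 1 array left out). No sign could change with the filters, the trend or the block, which leave each difference as in the main setting. The 28 include fits with 1 array left out and with the block, which keep 1 residual degree of freedom and are described below. The count of AP-1 and EGR probe sets that fell (4) was 2 with the values as deposited, 3 with median centring and 1 with an offset of 1. Without probe sets under the 50th percentile it was 4, but for Egr1, both Jun probe sets and Junb. That filter left out Egr2 and Atf3. With an intensity trend it was 4, for Egr1, both Jun probe sets and Atf3. The count that rose (0) was 1, Jund, with an offset of 64, without probe sets under the 50th percentile and with an intensity trend. Over all probe sets, 1213 fell and 1027 rose. These counts were 426 and 180 with an offset of 1, 1986 and 2130 with an offset of 64, 1975 and 2084 without probe sets under the 25th percentile, 2232 and 2642 without those under the 50th, and 1980 and 2170 with a trend. With the values as deposited 1161 fell and 600 rose, and with median centring 1141 fell and 1662 rose. Of other immediate early genes (6 called), 1 was called with an offset of 1 and 11 without probe sets under the 50th percentile. Of partners and regulators (2 called), 0 were called with an offset of 1, 5 with 64, 6 and 8 with the 25th and 50th percentile filters, 6 with a trend and 1 with probe sets averaged. The target genes (13 called) stayed within 1.5 times in all these settings. In the filtered fits fewer probe sets are tested, and limma is fitted anew on those that remain. The cause of the changed counts was not tested for any setting. With any 1 array left out every one of these counts was 0, as it was with the replicate block (limma, 1 residual degree of freedom). The replicate numbers are not known to pair the arrays: the difference of replicate 1 minus 2 correlated at r = 0.12 between the groups across probe sets, with 2 pairs only. The block left Egr1 at −0.99 with adjusted p = 0.075. Dim readings limit Fosb most, and 6 of the 13 probe sets lie under the median level of all probe sets.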
